A study of Mus musculus with 12 samples.

Results

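The metallothioneins Mt1, Mt2 and Mt3, the zinc-sensing transcription factor Mtf1, the zinc exporter Slc30a1 and the zinc importer Slc39a14 were followed in quadriceps muscle of a mouse model of Pompe disease, in which the lysosomal glycogen-degrading enzyme acid alpha-glucosidase (Gaa) is lost. These 6 of the 15344 genes in the deposited tables were chosen by symbol, with their levels in these animals already known, so their values are a description, no p-value is given for them and nothing is read from their passing a threshold. The 12 libraries were bulk RNA-Seq of quadriceps from 12 mice of the C57BL/6 strain at 6 months of age, in 3 groups of 4. The group labelled WT was wild type and untreated. The group labelled KO carried the genotype GAA Knock-out and received PBS, and its mice were male according to the methods. Mice of the group labelled AAV were male, had the same knock-out genotype and received AAV2/8-LSPhGAApA through the tail vein at 2 months of age, at 2e12 vg/kg. That vector drives human GAA from a liver-specific promoter, so the muscle itself was not the tissue meant to express it.

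Metallothioneins are small cysteine-rich proteins that bind zinc and copper ions in the cytosol. When free zinc is high, the factor encoded by Mtf1 binds short DNA elements called metal response elements and switches on Mt1, Mt2 and Slc30a1. Mt1 and Mt2 are also known to be induced by glucocorticoids and by interleukin-6 in many tissues, whereas Mt3 is best known from the brain. Slc30a1 (ZnT1) carries zinc out of the cytosol and Slc39a14 (ZIP14) carries it in, the latter also under inflammatory cues.

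The 3 metallothionein genes lie side by side with Mt4 on chromosome 8 (GRCm38, GENCODE M21), on the + strand between 94137197 and 94180327. Mt1 (ENSMUSG00000031765) occupies 94179082 to 94180327, Mt2 (ENSMUSG00000031762) 94172664 to 94173568 and Mt3 (ENSMUSG00000031760) 94152607 to 94154146. Mtf1 (ENSMUSG00000028890) lies on chromosome 4 at 124802104 to 124849800 (+ strand), Slc30a1 (ENSMUSG00000037434) on chromosome 1 at 191906767 to 191913247 (+ strand) and Slc39a14 (ENSMUSG00000022094) on chromosome 14 at 70303469 to 70351425 (- strand). All 6 are annotated as protein coding. Values below are read counts over the whole gene.

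The promoters of Mt1, Mt2 and Mt3, which differed most between groups among the 6 genes, and of Slc30a1 are shown because they carry, or lack, the core letters of the metal response element. Each window runs from 250 bases before to 30 bases after the start in the RefSeq promoter table (GRCm38.p6), 5′ to 3′, and capitals mark every match to TGCACNC or TGCGCNC on either strand. The windows are chr8:94178839-94179118 for Mt1, chr8:94172368-94172647 for Mt2, chr8:94152357-94152636 for Mt3 and chr1:191906531-191906810 for Slc30a1, all on the + strand.
Mt1: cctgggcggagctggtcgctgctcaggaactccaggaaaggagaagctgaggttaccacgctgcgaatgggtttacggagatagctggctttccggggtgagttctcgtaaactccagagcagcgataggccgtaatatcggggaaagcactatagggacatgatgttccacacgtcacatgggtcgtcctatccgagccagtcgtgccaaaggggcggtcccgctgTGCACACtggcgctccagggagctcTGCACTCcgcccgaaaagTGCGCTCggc
Mt2: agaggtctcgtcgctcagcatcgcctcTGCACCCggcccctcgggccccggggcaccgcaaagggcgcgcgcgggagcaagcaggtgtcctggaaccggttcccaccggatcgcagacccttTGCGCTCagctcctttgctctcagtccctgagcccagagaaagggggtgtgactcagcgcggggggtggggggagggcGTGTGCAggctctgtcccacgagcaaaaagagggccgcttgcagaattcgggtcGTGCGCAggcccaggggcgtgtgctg
Mt3: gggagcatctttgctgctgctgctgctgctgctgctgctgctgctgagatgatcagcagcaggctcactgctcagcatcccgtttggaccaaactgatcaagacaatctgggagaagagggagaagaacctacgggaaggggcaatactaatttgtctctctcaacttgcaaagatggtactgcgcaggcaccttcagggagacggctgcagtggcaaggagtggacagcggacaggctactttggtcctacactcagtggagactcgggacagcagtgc
Slc30a1: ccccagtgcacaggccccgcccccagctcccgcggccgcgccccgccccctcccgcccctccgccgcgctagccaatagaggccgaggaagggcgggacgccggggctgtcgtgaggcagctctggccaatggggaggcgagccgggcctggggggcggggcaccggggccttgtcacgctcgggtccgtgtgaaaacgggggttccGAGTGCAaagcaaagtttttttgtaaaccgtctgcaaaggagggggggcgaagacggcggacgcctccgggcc
Mt1 held 3 matches, which began 23 bases before and 2 and 20 bases after the start in the RefSeq table (94179089, which is not the GENCODE start given above). Mt2 held 4 matches, at 223, 128 and 50 bases before and 4 bases after its RefSeq start (94172618). Slc30a1 and Mt4 held 1 each, and Mt3 and Mtf1 held 0 in this window. Of 32851 windows of the same 280 bases in the table, 24.1% held at least 1 match, 1.73% at least 3 and 0.405% at least 4. No match overlapped another. A match is a description of letters and does not show binding, and Slc39a14 has no entry in the table. The number of matches and their positions depend on the start used, and sequence outside these windows was not searched.

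Gaa, the targeted gene, had 343, 14640, 324 and 460 normalized counts in the animals labelled WT, 12151, 13075, 11936 and 12895 in those labelled KO and 947, 587, 500 and 9854 in those labelled AAV. It was thus highest in the group labelled KO, against the label, and high in animal 2 labelled WT and animal 4 labelled AAV. The Gaa counts thus did not bear out the labels, either between the groups or among animals within the groups labelled WT and AAV. The counts cover the whole gene, and the sources used here do not say which part of it is disrupted. The reason for the conflict was not tested, and every direction below rests on the labels. Enzyme activity and glycogen content of muscle were not analysed here. By correlation over all genes, animal 3 labelled WT was nearest to animal 3 labelled AAV (r = 0.976) and animal 4 labelled AAV to animal 4 labelled WT (r = 0.975), and results are also given without animals that stand apart where they move. A normalized count is the number of reads of a gene divided by 1 size factor per library, so values can be compared between animals for the same gene.

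Mt1 was at 18460, 17996, 1827 and 10377 normalized counts in animals 1 to 4 labelled WT, at 420, 387, 603 and 296 in those labelled KO and at 11082, 1823, 1434 and 20094 in those labelled AAV. Every library labelled KO lay below every other library, while the groups labelled WT and AAV overlapped over almost their whole range. The group means were 12165 ± 7825, 426 ± 129 and 8608 ± 8861 (SD, n = 4) in the order WT, KO and AAV.

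Mt2 followed the same pattern with a deeper low point. The animals labelled WT had 20257, 18863, 1725 and 11171 normalized counts, those labelled KO 277, 121, 228 and 70.7, and those labelled AAV 12217, 1995, 1310 and 21438. Again no library labelled KO reached the lowest library of either other group. Means were 13004 ± 8515, 174 ± 95.1 and 9240 ± 9540 (SD, n = 4).

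Mt3 showed the widest range of the 6 genes. It was at 13566, 17019, 723 and 11385 normalized counts in the animals labelled WT, at 32.9, 27.4, 20.7 and 23.9 in those labelled KO and at 3530, 679, 339 and 17970 in those labelled AAV. The 4 libraries labelled KO differed by at most 1.59 times among themselves, while those labelled AAV spanned 53.0 times and those labelled WT 23.5 times. Only 19 to 34 Mt3 reads were behind the values labelled KO, and up to 19582 elsewhere, so the KO level rests on few reads. Means were 10673 ± 7027, 26.2 ± 5.22 and 5629 ± 8351 (SD, n = 4).

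**Figure D1:**
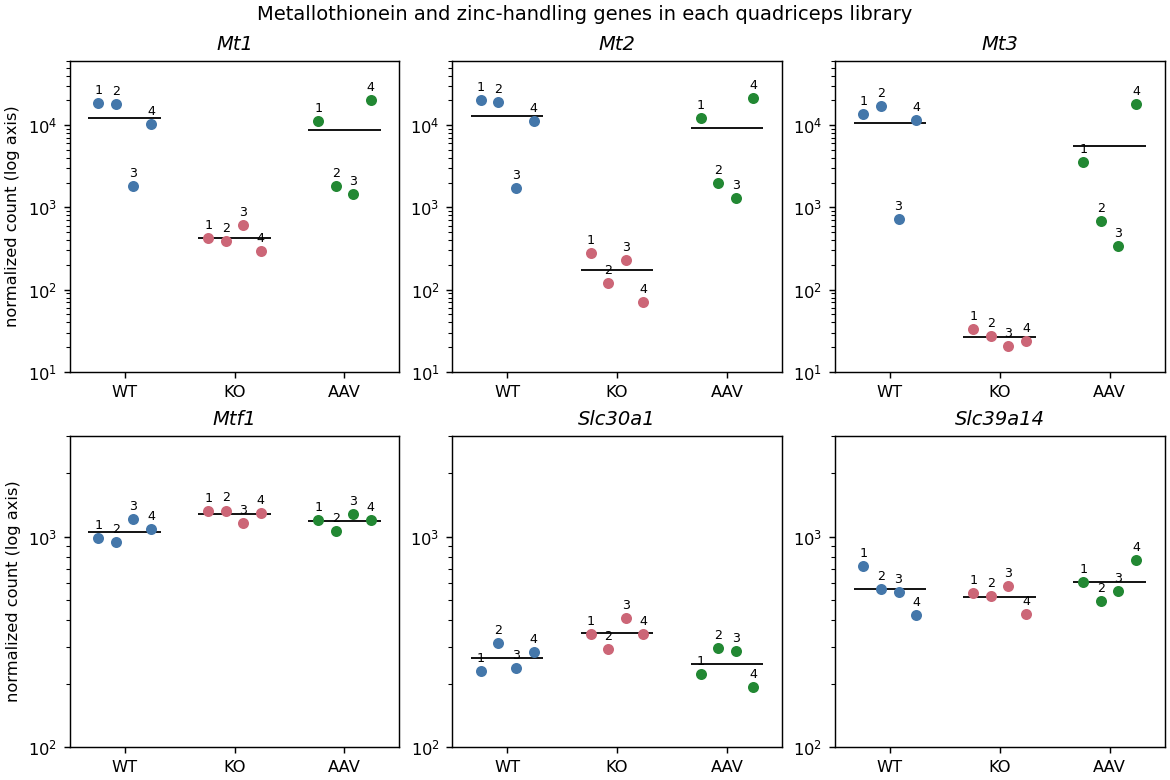
Normalized counts of the 6 genes in each library (points, numbered by animal) with the group mean (line), on log axes that differ between the upper and the lower row. The libraries labelled KO lie apart for Mt1, Mt2 and Mt3, and the 3 groups overlap for Mtf1, Slc30a1 and Slc39a14.

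The ratio of the group means, WT over KO, was 28.5 for Mt1, 74.6 for Mt2 and 408 for Mt3, and AAV over KO it was 20.2, 53.0 and 215. Without animal 4 labelled AAV, the latter ratios were 11.2, 29.7 and 57.9. On the log2(normalized count + 1) scale, the differences from WT to KO were -4.43 (SE 0.64) for Mt1, -5.91 (SE 0.74) for Mt2 and -7.94 (SE 0.84) for Mt3. By size, these differences ranked 61, 18 and 2 among the 14859 genes fitted. From KO to AAV the differences were 3.57 (SE 0.75), 5.06 (SE 0.84) and 6.19 (SE 0.999) in the same order. Between the groups labelled AAV and WT they were -0.86 (SE 0.97), -0.86 (SE 1.01) and -1.76 (SE 1.31) in the same order, each within the SD of 1.74, 1.82 and 2.36 between animals on that scale. These values turn on single animals, since the difference of Mt3 was -2.82 without animal 3 labelled WT, -2.82 without animal 4 labelled AAV and -0.91 without animal 3 labelled AAV, and that of Mt1 ranged from -1.62 without animal 3 labelled WT to -0.27 without animal 3 labelled AAV. The comparisons share libraries and are therefore not independent of each other.

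Of the 6 genes, 3 passed an adjusted p under 0.05 with an absolute log2 difference of at least 1 in KO against WT (limma, Benjamini-Hochberg over all genes), all lower, where 8.50% of all genes tested were called lower. In AAV against KO the same 3 passed, all higher, where 5.43% of all genes were called higher, and 0 of 6 passed in AAV against WT, where 0.951% were called in either direction. Mt1, Mt2 and Mt3 also had no overlap of their 4 against 4 libraries in KO against WT, where 15.1% of all genes lay lower without overlap, and in AAV against KO, where 14.8% lay higher. In AAV against WT 0 of the 6 were without overlap, where 11.7% of all genes were. The 6 genes were chosen from these contrasts, so nothing is read from these counts.

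Animal 3 labelled WT and animals 2 and 3 labelled AAV were the low libraries of their groups for all 3 metallothioneins. Animal 3 labelled WT held 4275 normalized counts of the 3 genes together, against 32933 to 53878 in the others of its group. Leaving it out moved the differences from WT to KO to -5.19 for Mt1, -6.72 for Mt2 and -9.01 for Mt3. Animal 2 labelled WT, with high Gaa, had metallothionein levels like animal 1, with low Gaa. Animal 4 labelled AAV, with high Gaa, was the high library of its group, and without it the differences from KO to AAV were 2.89, 4.37 and 5.12. Together, the 3 genes took 0.0111 to 0.157% of all counted reads in the libraries labelled WT, 0.00108 to 0.00251% in those labelled KO and 0.00861 to 0.217% in those labelled AAV.

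The ranks of the 3 genes within a library show how far their place changed. Mt1 ranked between 160 and 2087 of the 15344 genes in the libraries labelled WT, between 4829 and 7040 in those labelled KO and between 122 and 2452 in those labelled AAV. Mt3 ranked between 195 and 4390, between 11456 and 12319, and between 135 and 6650 in the same order. By rank, no library labelled KO overlapped another group for Mt1 or Mt3, and this holds whatever factor a library is scaled by.

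The proportions among the metallothioneins also differed with the label, and a ratio within a library does not depend on its scaling either. The ratio of Mt2 to Mt1 counts was 0.944 to 1.10 in the libraries labelled WT and 0.914 to 1.10 in those labelled AAV, but 0.239 to 0.660 in those labelled KO. For Mt3 to Mt1 it was 0.396 to 1.10, 0.236 to 0.894 and 0.0343 to 0.0806 in the order WT, AAV and KO. The deficit in the libraries labelled KO was thus unequal, smallest for Mt1 and largest for Mt3. Within the other groups, Mt3 to Mt1 was lowest in animal 3 labelled WT (0.396) and animal 3 labelled AAV (0.236), which had the lowest sums of the 3 genes. Animal 1 labelled AAV had a higher sum than animal 2 but a lower ratio (0.318 beside 0.372). Whether the ratio follows the level in place of the label was not tested. Per kilobase of the principal transcript, mean levels in the group labelled WT were 25448 for Mt2, 22159 for Mt1 and 19913 for Mt3, and neighbours in this order differ by less than the spread between animals. Within a library labelled WT, Mt2 per kilobase was 1.01 to 1.18 times Mt1, above it in all 4, and Mt3 was 0.405 to 1.12 times Mt1. In the group labelled KO the order of levels per kilobase was Mt1 at 777, Mt2 at 341 and Mt3 at 48.9, and Mt2 was at 0.257 to 0.709 of Mt1 within each library.

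**Figure D2:**
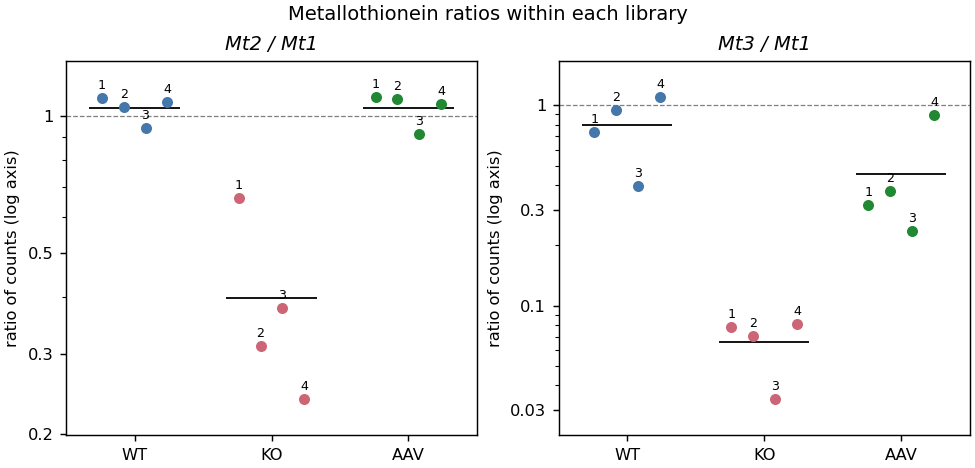
Ratio of Mt2 to Mt1 (left) and of Mt3 to Mt1 (right) normalized counts within each library (points, numbered by animal) with the mean of each group (line), on log axes. The dashed line marks equal counts, and the libraries labelled KO are the lowest in both panels.

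By BLAST, only the longest match on the same strand was kept for each metallothionein transcript and other gene, so shorter and more alike stretches can be missed. Among these, matches over more than 50 bases were at most 79.7% identical, that of Mt2 and Mt4 over 133 bases, and Mt1 and Mt2 matched at 79.2% over 192 bases. The longest match was of Mt2 and Pip5k1a, at 74.6% over 319 bases. Over shorter stretches, Mt3 matched Pip5k1a at 90.2% over 41 bases and Mt4 at 88.0% over 50 bases. In the annotation an antisense gene, Gm45774, overlaps Mt2 and is not a row of the tables used here, and the strand setting of the counting is not given in the sources used here.

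Mt4, the fourth gene of the cluster, which is known from stratified epithelia, was at low counts but with the same order of groups. It had 219, 155, 8.93 and 101 normalized counts in the animals labelled WT, 0 in all 4 labelled KO and 38.6, 4.03, 1.18 and 227 in those labelled AAV. With a floor of 3 reads per library for the libraries at 0, the mean was at least 42.6-fold higher in the group labelled WT and at least 23.8-fold higher in the group labelled AAV than in that labelled KO. The latter bound rests on animal 4 labelled AAV and is at least 5.13-fold without it, and animal 3 labelled AAV, with 1 read, lay below the floor itself. It was listed with copper and MTF-1 target genes and is counted there.

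The genes that flank the cluster did not share this size of difference. Nup93, a nucleoporin gene that begins 35.5 kb downstream of the Mt1 start, averaged 635 ± 259, 406 ± 30.3 and 480 ± 201 normalized counts (SD, n = 4) in the order WT, KO and AAV, with overlapping groups. Bbs2, which encodes a subunit of the ciliary BBSome and lies on the other side, averaged 130 ± 18.8, 105 ± 6.08 and 141 ± 31.0. Its libraries labelled KO (97.6 to 112) all lay below those labelled WT (115 to 155) but overlapped those labelled AAV. Herpud1, an endoplasmic reticulum stress gene, averaged 3223 ± 382, 3834 ± 651 and 3254 ± 540, and Ogfod1, a ribosomal oxygenase gene, 910 ± 122, 1098 ± 82.1 and 843 ± 85.9. Ogfod1 in the libraries labelled KO (1030 to 1216) lay above all labelled AAV (765 to 960) and overlapped those labelled WT. Nudt21, a cleavage factor gene, averaged 49.96 ± 7.11, 62.8 ± 14.4 and 57.8 ± 10.9. Only the antisense gene Gm15890 among these 6 neighbours, at 11.1 ± 4.83, 2.90 ± 1.08 and 8.74 ± 2.44, had all libraries labelled KO below those of both other groups, at under 5 normalized counts each.

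**Figure D3:**
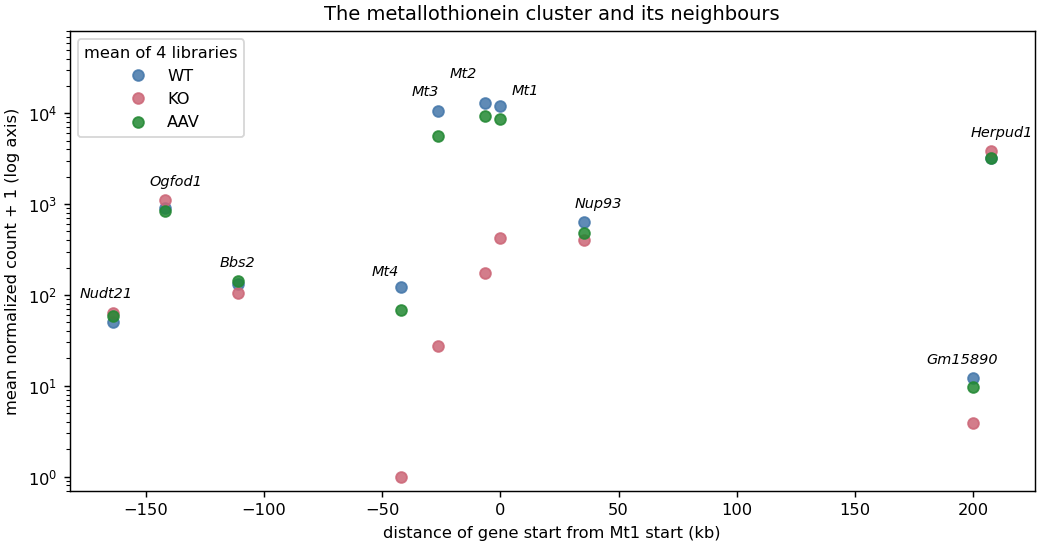
Mean normalized count + 1 (log axis) of 4 libraries per group for the 4 metallothionein genes and the 3 nearest genes of the table on each side, against the distance of each gene start from the Mt1 start in kb. The groups are spread widely at Mt4, Mt3, Mt2 and Mt1, and less at the coding genes on either side.

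Mtf1, the gene of the zinc-sensing activator, differed little between groups. It was at 983, 938, 1209 and 1087 normalized counts in the animals labelled WT, at 1316, 1330, 1156 and 1296 in those labelled KO and at 1192, 1063, 1280 and 1204 in those labelled AAV. The groups overlapped, and the means were 1054 ± 121, 1275 ± 80.1 and 1185 ± 90.0 (SD, n = 4). The log2 difference was 0.28 (SE 0.12) in KO against WT, -0.11 (SE 0.10) in AAV against KO and 0.17 (SE 0.14) in AAV against WT. Its mean was highest in the group labelled KO, where its classical targets Mt1 and Mt2 were lowest, except that with libraries scaled by total reads its difference in AAV against KO was 0.06 in place of -0.11.

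Slc30a1, the zinc exporter that is also a classical target of the factor, was at 229, 311, 237 and 284 normalized counts in the animals labelled WT, 346, 292, 410 and 345 in those labelled KO and 223, 294, 285 and 193 in those labelled AAV. Its highest values were in libraries labelled KO, but animal 2 of that group lay within both other groups. The means of 265 ± 39.1, 348 ± 48.1 and 249 ± 48.7 (SD, n = 4) gave log2 differences of 0.39 (SE 0.16) in KO against WT, -0.50 (SE 0.17) in AAV against KO and -0.10 (SE 0.19) in AAV against WT. The mean of Slc30a1 was thus highest in the group in which those of Mt1 and Mt2 were lowest.

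Slc39a14, the importer, was at 723, 561, 545 and 424 normalized counts in the animals labelled WT, 540, 522, 580 and 429 in those labelled KO and 606, 493, 554 and 776 in those labelled AAV. All 3 groups overlapped throughout. Means were 563 ± 123, 518 ± 63.9 and 608 ± 122 (SD, n = 4), with log2 differences of -0.11 (SE 0.18) in KO against WT, 0.22 (SE 0.16) in AAV against KO and 0.11 (SE 0.20) in AAV against WT. Per kilobase of the principal transcript, Mtf1 averaged 138, 167 and 155 and Slc30a1 50.6, 66.4 and 47.4 in the order WT, KO and AAV, and no single principal transcript is annotated for Slc39a14.

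The other zinc transporters were tested, as a list of 22 genes of the Slc30a exporter and Slc39a importer families, of which 16 were in the tables. This list and those below were chosen with earlier results of these data known, so their p-values are not independent of that choice. In KO against WT, 2 of the 16 rose and 0 fell, 12.5% called where 13.9% of all genes were called. By adjusted p alone 4 passed, 2 higher and 2 lower, where 27.6% of all genes did, the lower ones being the importers Slc39a1 at -0.50 (SE 0.16, adjusted p = 0.0446) and Slc39a3 at -0.50 (SE 0.13, adjusted p = 0.0195, limma with Benjamini-Hochberg adjustment). Slc39a1 no longer passed with scaling by total reads, with the replicate number as a block or without any 1 animal of either group other than animal 3 labelled WT (adjusted p up to 0.125), and Slc39a3 with the block or without animal 1, 2 or 3 labelled KO (adjusted p up to 0.0586, limma, Benjamini-Hochberg). The median log2 difference of the 16 was 0.11, beside 0.024 over all genes tested. Slc39a2 (ZIP2), a plasma membrane importer, had 16.3, 18.1, 12.2 and 28.3 normalized counts in the animals labelled WT, 95.7, 87.2, 111 and 103 in those labelled KO and 56.5, 49.3, 36.6 and 67.9 in those labelled AAV. Its 3 groups did not overlap, with the group labelled AAV between the others. The difference from WT to KO was 2.40 on the log2 scale (SE 0.27, adjusted p = 0.000626, limma with Benjamini-Hochberg adjustment), and it passed in all 16 alternatives.

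Slc30a2 (ZnT2), which loads zinc into vesicles, was at 477, 389, 570 and 194 normalized counts in the animals labelled WT, at 948, 744, 891 and 1011 in those labelled KO and at 730, 664, 1108 and 226 in those labelled AAV. The groups labelled KO and WT did not overlap, and that labelled AAV overlapped both. The difference from WT to KO was 1.24 (SE 0.29, adjusted p = 0.0137, limma with Benjamini-Hochberg adjustment). Without animal 4 labelled WT it was 0.92 (adjusted p = 0.0131), under the fold threshold, and 1 transporter was then called.

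In AAV against KO, 0 of the 16 transporters were called by limma, where 8.98% of all genes were, and 0 by edgeR and by DESeq2 on recovered reads. By limma 6 had an unadjusted p under 0.05, a count from which nothing is read, as the share of all genes at that threshold is not given here. The median log2 difference was -0.32, beside 0.041 over all genes. An adjusted p under 0.05 without the fold threshold was reached by 26.3% of all genes and by 3 of the 16, all with lower values in the group labelled AAV (limma, Benjamini-Hochberg): Slc30a4, a vesicular zinc transporter, at -0.93 (SE 0.15), Slc39a2 at -0.93 (SE 0.21) and Slc39a7, an importer into the cytosol from the endoplasmic reticulum and Golgi, at -0.89 (SE 0.20). With libraries scaled by total reads Slc39a2 was at -0.77 and no longer passed (adjusted p = 0.0595, limma, Benjamini-Hochberg), while Slc30a4 and Slc39a7 passed in all 16 alternatives by adjusted p alone. Leaving out animal 2, 3 or 4 labelled AAV each gave 1 call.

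Between AAV and WT, 0 of 16 were called by limma, where 0.951% of all genes were called. An unadjusted p under 0.05 (limma) was reached by 5, and as the share of all genes at that threshold is not given here, nothing is read from this count. DESeq2 on recovered reads and limma on all 12 libraries each called 1, Slc39a2, at 1.51 and 1.47, against 1.47 (SE 0.32, adjusted p = 0.0601) by limma on 8 libraries. The median was -0.13, beside -0.031 over all genes. Of the abundant transporters, Slc30a9, Slc39a1, Slc39a13 and Slc39a3 did not pass both thresholds in any comparison, and Slc30a9 and Slc39a13 were at 0.11 and -0.31 from WT to KO.

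**Figure D4:**
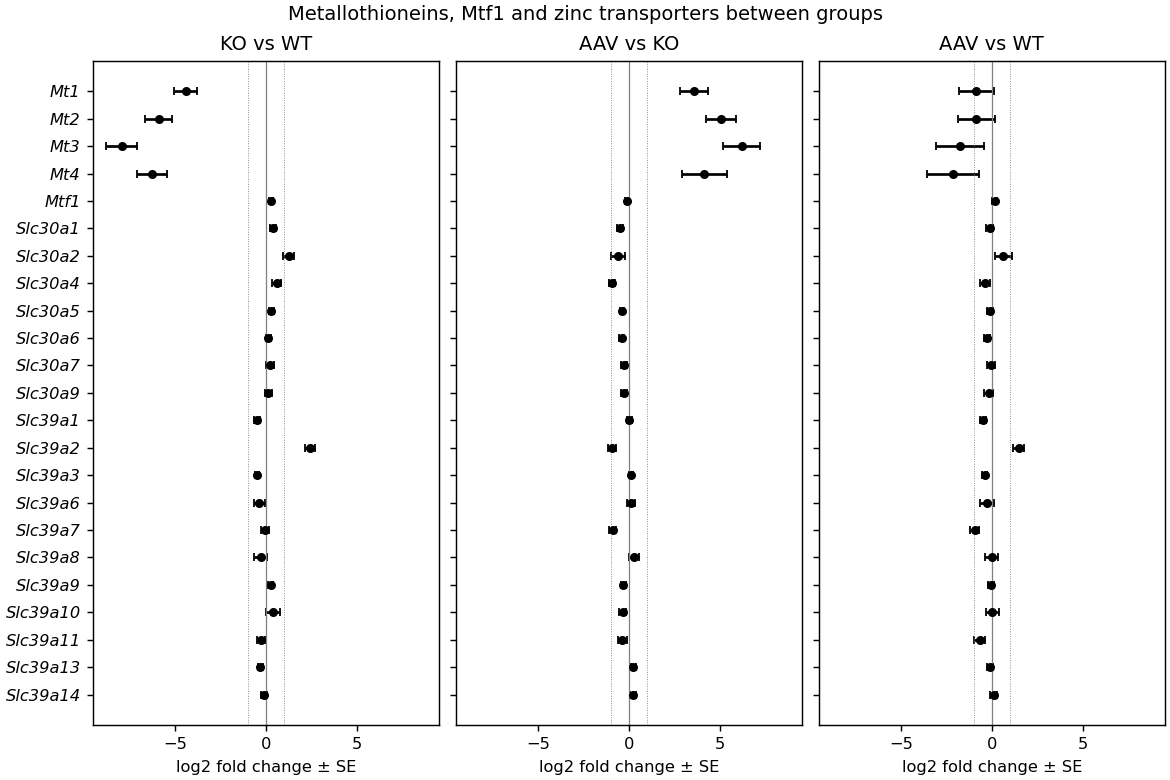
Log2 difference with its standard error (points and bars, limma on log2(normalized count + 1)) of the metallothioneins, Mtf1, Slc30a1, 16 other zinc transporters and Slc39a14 in the 3 comparisons of 4 against 4 libraries. Dotted lines mark a difference of 1 in either direction, and the 4 metallothioneins lie far outside the range of the transporters in KO vs WT and AAV vs KO.

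Genes of copper handling and other reported targets of the factor formed a list of 17, with 16 in the tables. In KO against WT 1 of the 16 fell and 0 rose, 6.25% called where 13.9% of all genes were, and the median was -0.38. By adjusted p alone 8 passed, 3 higher and 5 lower, where 27.6% of all genes did. The called gene was Mt4, with a fitted log2 difference of -6.26 (SE 0.84, adjusted p = 0.00149, limma, Benjamini-Hochberg) that depends on the 1 added to each value. Mt4 lies in the cluster of the chosen metallothioneins, so nothing is read from its call here or in AAV against KO. Cox17, the copper chaperone of cytochrome oxidase, had 791, 851, 553 and 1112 normalized counts in the animals labelled WT, 386, 457, 483 and 393 in those labelled KO and 798, 661, 774 and 1121 in those labelled AAV, so that no library labelled KO reached the others. Its difference from WT to KO was -0.90 (SE 0.20, adjusted p = 0.0111, limma, Benjamini-Hochberg), just under the fold threshold, and became -1.08 without animal 3 labelled WT, when 2 genes of the list were called.

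Other abundant members of the copper list were Sod1, the copper and zinc superoxide dismutase, at -0.34 (adjusted p = 0.156), Commd1, a copper export factor, at -0.68 (adjusted p = 0.00962), and Csrp1, a LIM zinc finger protein gene, at -0.03 (adjusted p = 0.897) from WT to KO (limma, Benjamini-Hochberg). In AAV against KO, 1 of the 16 rose, Mt4 at 4.15 (SE 1.23, adjusted p = 0.0341, limma, Benjamini-Hochberg), where 8.98% of all genes were called, and by adjusted p alone 4 passed, 3 higher and 1 lower, where 26.3% of all genes did. The call was lost, with an adjusted p of up to 0.0969, without any 1 of the 4 animals labelled KO or without animal 1 or 4 labelled AAV, and 2 genes were called without animal 2 labelled AAV. Cox17 was at 0.94 (SE 0.17, adjusted p = 0.00616, limma, Benjamini-Hochberg) in that comparison. In AAV against WT 0 of the 16 were called by limma, where 0.951% of all genes were, and 0 by DESeq2 or edgeR. By limma 4 had an unadjusted p under 0.05, a count from which nothing is read, as the share of all genes at that threshold is not given here.

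A list of 26 genes known to respond to glucocorticoids or interleukin-6, the other classical inducers of Mt1 and Mt2, was in the tables in full. From WT to KO 6 of them fell and 2 rose, 30.8% called where 13.9% of all genes were, although the median of the list was 0.26, opposite in sign to most of its calls. By adjusted p alone 12 passed, 5 with higher and 7 with lower values in the group labelled KO, where 27.6% of all genes passed. Socs3, the feedback inhibitor of that pathway, had 518, 732, 582 and 833 normalized counts in the animals labelled WT, 165, 62.4, 119 and 73.4 in those labelled KO and 518, 401, 44.9 and 418 in those labelled AAV. The groups labelled WT and KO did not overlap, and animal 3 labelled AAV lay below all others. Its difference was -2.74 (SE 0.30, adjusted p = 0.000584, limma, Benjamini-Hochberg), called in all 16 alternatives.

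Serpina3n, an acute phase protease inhibitor, had 1251, 1225, 25.2 and 797 normalized counts in the animals labelled WT, 31.9, 29.1, 80.5 and 7.96 in those labelled KO and 161, 45.3, 7.09 and 624 in those labelled AAV. Animal 3 labelled WT lay within the group labelled KO, as it did not for the metallothioneins. The difference from WT to KO was -3.86 (SE 1.17, adjusted p = 0.0348, limma, Benjamini-Hochberg), called in 8 of 16 alternatives. Cebpb and Cebpd, transcription factors of the acute phase, fell by 2.48 and 1.72, Bcl3, a nuclear partner of NF-kappaB, by 1.53, and Cdkn1a, a cell cycle inhibitor, by 1.53 on the log2 scale (adjusted p of 0.0315, 0.0366, 0.0319 and 0.0411, limma, Benjamini-Hochberg). These 4 were called in 8 to 11 of 16 alternatives each. Cebpb had 766, 6622, 384 and 1020 normalized counts in the animals labelled WT and 117 to 319 in those labelled KO, and its difference was -1.65 without animal 2 labelled WT. The difference of Serpina3n was -5.20 without animal 3 labelled WT.

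The 2 genes that rose from WT to KO were Sgk1, a kinase induced by glucocorticoids, at 1.27 (SE 0.19, adjusted p = 0.00263), and Pim1, a kinase gene downstream of STAT3, at 1.70 (SE 0.48, adjusted p = 0.0272), both by limma with Benjamini-Hochberg adjustment. Sgk1 was called in all 16 alternatives and Pim1 in 11, its call being lost without animal 1, 2 or 4 labelled WT or animal 1 or 2 labelled KO (adjusted p up to 0.0758, limma, Benjamini-Hochberg). Pim1 reached 1706 normalized counts in animal 2 labelled KO and 271 to 906 in the others of that group. The abundant glucocorticoid targets Tsc22d3, Klf9, Glul and Pdk4 were not called, at 0.55, 0.48, 0.69 and -0.997 (adjusted p of 0.108, 0.0711, 0.0215 and 0.0385, limma, Benjamini-Hochberg). Pdk4 lay just under the fold threshold and passed both thresholds in 6 of 16 alternatives, among them TMM and total-read scaling, DESeq2 and edgeR. Glul passed by adjusted p alone, but not in the limma fit of all 12 libraries (adjusted p = 0.188). The count of 8 calls was not stable to single animals, since it was 9 without animal 3 labelled WT and 2 to 5 without animal 1, 2 or 4 labelled WT or any 1 animal labelled KO.

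In AAV against KO, 4 of the 26 were called, 15.4% where 8.98% of all genes were, and 6 passed by adjusted p alone, 3 in each direction, where 26.3% of all genes did. Nfkbia, the inhibitor of NF-kappaB, rose by 1.30 (SE 0.27, adjusted p = 0.0106) and Cebpb by 1.31 (SE 0.37, adjusted p = 0.0303), while Sgk1 fell by 1.19 (SE 0.19, adjusted p = 0.00491) and Pim1 by 1.57 (SE 0.46, adjusted p = 0.0341), all by limma with Benjamini-Hochberg adjustment. Nfkbia and Sgk1 were called in all 16 alternatives, but Cebpb and Pim1 in 10 each. The call of Cebpb was lost with the replicate number as a block (adjusted p = 0.0794), in the limma fit of all 12 libraries (adjusted p = 0.182) and without animal 1, 2 or 4 labelled KO or animal 1 labelled AAV. That of Pim1 was lost without animal 1, 2 or 4 labelled KO or animal 1, 2 or 4 labelled AAV. Without animal 2 or 4 labelled KO or animal 1 labelled AAV 2 were called, without animal 3 labelled AAV 8, and DESeq2 on recovered reads called 7. In AAV against WT 0 of the 26 were called by limma, where 0.951% of all genes were, and 0 by DESeq2 or edgeR. By limma 5 had an unadjusted p under 0.05, a count from which nothing is read, as the share of all genes at that threshold is not given here.

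Genes whose pattern over the 12 libraries was most like that of the metallothioneins were named by Pearson correlation on the log2(normalized count + 1) scale, as a description without a test, among genes with a mean of at least 50. For the mean of standardized Mt1 and Mt2 they were Anxa8 (r = 0.988), Mt3 (0.986), the mitochondrial uncoupling protein gene Ucp2 (0.984), Ahnak2 (0.983) and the transcription factor gene Runx1 (0.982). For Mt3 they were Arl6ip5 (0.992), Anxa8 (0.988), the metalloproteinase inhibitor gene Timp1 (0.988), Creld2 (0.987) and C77080 (0.986). The points share library, depth and group, and the separation of the groups alone gives high values. Anxa8, an annexin gene, had 1200, 983, 72.2 and 854 normalized counts in the animals labelled WT, 22.2, 12.8, 19.6 and 16.8 in those labelled KO and 474, 166, 73.2 and 1199 in those labelled AAV, with the same low and high animals as the metallothioneins.

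Values of other cell types moved with these results, and their part in them was not tested. The summed level of 9 macrophage markers, none of them at 0 in all libraries, was 4657, 4441, 1675 and 5284 normalized counts in the animals labelled WT, 935 to 1687 in those labelled KO and 2202, 1695, 1001 and 4817 in those labelled AAV, with animal 3 labelled WT low and animal 4 labelled AAV high, as for Mt1. Of the 9 markers, 4 had all libraries labelled KO below all labelled WT and 5 overlapped between these groups. Lyz2, the lysozyme gene, averaged 1594 and 437 normalized counts in the groups labelled WT and KO and was the largest part of the sum, and Cd68, a lysosomal marker of macrophages, averaged 447 and 32.4. Mrc1, a mannose receptor gene, averaged 176 and 136 and Csf1r, a growth factor receptor gene, 247 and 178, both with overlap. Cd163, a scavenger receptor gene, went the other way, at 88.6 and 153, also with overlap. The sum of 6 endothelial markers went the other way, with 2081 to 5103 in the libraries labelled WT, 5012 to 6572 in those labelled KO and 4430 to 6894 in those labelled AAV. In bulk muscle, fewer cells of a type and less RNA per cell cannot be told apart.

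**Figure D5:**
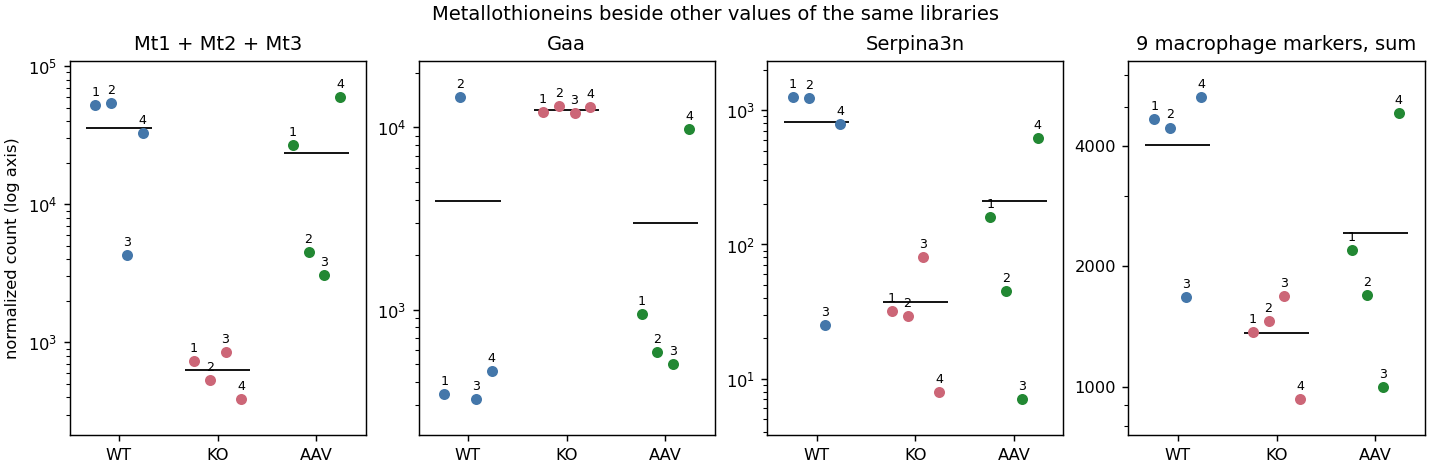
Summed normalized counts of Mt1, Mt2 and Mt3, counts of Gaa and Serpina3n, and the summed counts of 9 macrophage markers in each library (points, numbered by animal) with group means (lines), on log axes of different ranges. Animal 3 labelled WT is low and animal 4 labelled AAV high within its group for the metallothioneins and the macrophage markers, while Gaa is highest in the group labelled KO and in 1 animal of each other group.

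The muscle label was met by the 9 fast muscle markers, which summed to between 4428173 and 7375232 normalized counts in every library, but 2 of them differed with the label in opposite directions, each with the libraries labelled KO apart from both other groups, and their part in the results was not tested. Myh4, the myosin heavy chain gene of type IIb fibres, lay between 1722781 and 2213291 normalized counts in the animals labelled KO, above 914021 to 1293965 in those labelled WT and 871578 to 1645114 in those labelled AAV. Myh1, that of type IIx fibres, lay between 28863 and 66937 in the animals labelled KO, below 89364 to 212016 in the WT group and 87390 to 143016 in the AAV group. Sums of 6 fibroblast markers (8728 to 20191), 6 adipocyte markers (6898 to 18261), 6 Schwann cell and nerve markers (950 to 3621) and 5 red blood cell markers (188 to 4052) overlapped between all groups. Of 5 hepatocyte markers 2 were in the tables, with a sum of at most 37.6. Of 6 astrocyte and neuron markers 2 were in the tables. The neuronal Rbfox3 stayed at or below 11.96 normalized counts in every library. Aqp4, a water channel gene of astrocytes that fast muscle fibres also express, ranged from 24.4 to 430 in the group labelled WT, from 150 to 280 in that labelled KO and from 15.6 to 293 in that labelled AAV, highest in animal 3 labelled WT, the animal lowest in Mt1, Mt2 and Mt3 in its group. Counted reads per library lay between 22122233 and 47379737, lowest in the group labelled AAV, and the labels number the mice as separate animals, each sequenced once.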

How the data were processed

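RNA-Seq of quadriceps from 12 mice in 3 groups of 4 was used, grouped by the sample labels, with columns matched to those labels (0 columns of samples were left out). The authors trimmed reads with Trim Galore 0.4.1, mapped them to GRCm38 with STAR, and counted uniquely placed reads per gene with HTSeq 0.6.1. Genes without 10 reads in 1 library were dropped, and counts were scaled with DESeq2 1.16.1 size factors. The deposited values are this normalized signal, not raw counts, and whole reads could be recovered for 100% of them within 0.1 read. The authors' deposited tables also hold a log2 fold change with its standard error, a Wald statistic as a score, and p-value and adjusted p-value columns of their own comparisons, which were not used. Values labelled KO were the same in both tables (largest difference 0), so that all 12 libraries share 1 scale.

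Groups were compared by limma 3.58.1 with a trend on log2(value + 1), with p-values adjusted over all genes by Benjamini-Hochberg. Genes below 10 in all libraries compared were left out, and a gene was called past 2 thresholds, 0.05 for adjusted p and 1 for the absolute log2 difference. The 1 added makes differences of low genes smaller. Alternatives used TMM or total-read scaling, DESeq2 1.42.0 and edgeR 4.0.16 on recovered reads, no filter, a pseudocount of 0.1, all 12 libraries in 1 fit, the replicate number as a block, and each animal left out in turn. The test script was tested on simulated data first.

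The members and lists were chosen with earlier results of these data known. Named genes were the 6 members, Gaa, the called genes and up to 4 of the most abundant uncalled genes of each list, 3 neighbours on each side of the cluster, and the 5 genes most like Mt1 and Mt2 or Mt3. Further genes (Slc30a4, Slc39a7, Gm45774, Pip5k1a and cell type markers) were named after their values were seen. Promoter windows were taken from a RefSeq table, gene positions from GENCODE M21 (15186 of 15344 identifiers found), and transcripts were matched with BLAST 2.17.0. R 4.3.3 ran the tests, and Python 3.11.15 (pandas 2.3.3, matplotlib 3.10.9) the rest. Depth limits precision where few reads were counted, and a library at 0 was given a floor of 3 reads, which covers counting error only.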

Additional observations from a re-analysis of the deposited data

Results flagged for a closer look

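Within 23 groups of 4 libraries examined, an animal stood apart from the others of its group 3 times by Dixon's criterion, in which the gap to the nearest value, as a share of the whole range, exceeds the 95% critical value for 4. Chance alone finds about 1 group in 20. Mt4 reached 227 normalized counts in animal 4 labelled AAV (0.834 of the range), the animal with the highest Mt1, Mt2 and Mt3 of that group. Gaa reached 14640 in animal 2 labelled WT (0.990 of the range) and 9854 in animal 4 labelled AAV (0.952 of the range), against 324 to 947 in the other animals of those groups.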

How the results depend on the processing

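The log2 differences of the 6 genes kept their values within the spread between animals under every alternative tried, except that scaling by total reads moved Mtf1 to 0.059 in AAV against KO and to 0.32 in AAV against WT. That scaling moved the median of all genes to 0.20 (from 0.041) and to 0.12 (from -0.031) in these comparisons. It turned the split of called genes in AAV against KO from 809 higher and 529 lower to 1058 and 352, and in AAV against WT from 109 and 33 to 224 and 26, and called 2 copper genes in AAV against KO and 1 glucocorticoid or interleukin-6 gene in AAV against WT. DESeq2 called 7 of the latter list in AAV against KO and 1 zinc transporter in AAV against WT, where the fit of all 12 libraries also called 1. In AAV against WT the count over all genes was 142, beside 250 by total reads, 406 by DESeq2 and 397 in the fit of all 12 libraries.

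With 1 animal left out, the zinc transporters called were 1 to 2 in KO against WT and 0 to 1 in AAV against KO, copper genes 1 to 2 and 0 to 2, and glucocorticoid and interleukin-6 genes 2 to 9 and 2 to 8, and 0 of each list in AAV against WT. Mt3 lay between -9.01 and -7.49 in KO against WT and between 5.12 and 7.03 in AAV against KO. Small differences changed sign: Slc30a1 in AAV against WT (-0.19 to 0.01), and Slc39a14 in AAV against WT (-0.01 to 0.24) and in KO against WT (-0.23 to 0.02). Over all genes, calls ranged from 1332 to 3238, from 787 to 1966 and from 18 to 330 in KO against WT, AAV against KO and AAV against WT, and leaving out animal 2 labelled WT with animal 4 labelled AAV gave 10 in the last. The cause was not tested.

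The replicate numbers stand for different animals. Between libraries of equal number, deviations correlated at 0.55 for animals 3 and 0.48 for animals 4 labelled AAV and WT. The value was -0.35 for animals 2 of these groups, and all other pairs of equal number lay between -0.18 and 0.06. Values for pairs of unequal number are not given here, so whether the number marks anything shared was not tested. With the number as a block, 2, 1 and 6 genes of the zinc, copper and glucocorticoid lists were called in KO against WT (2, 1 and 8 without it), 0, 1 and 4 in AAV against KO (where Cebpb was no longer called and Cdkn1a was) and 0 of each in AAV against WT, and the differences of the 6 genes were the same (Mt3 -7.94). Over all genes the block gave 1830, 1003 and 120 calls.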
